A study of Mus musculus with 12 samples.

Results

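Transcript levels of 10 mouse genes that encode Toll-like receptors (TLRs) and their co-receptors were followed in brain tissue after intracerebral hemorrhage (ICH). The genes, Tlr1, Tlr2, Tlr3, Tlr4, Tlr7, Tlr8, Tlr9, Tlr13, Cd14 and Cd180, were taken by symbol from a table of 21956 genes, and all 10 were present in it. TLRs are innate immune receptors that bind products of microbes and of damaged host cells. Tlr1, Tlr2 and Tlr4 act at the cell surface, where Cd14 and Cd180 accompany them, whereas Tlr3, Tlr7, Tlr8, Tlr9 and Tlr13 sense nucleic acids inside endosomes. Most of them signal through the adaptor Myd88 to NF-kB and to interferon regulatory factors, Tlr3 signals through Ticam1, and Tlr4 uses both adaptors. In the brain, microglia are the best known site of TLR expression, infiltrating myeloid cells carry many of the same receptors, and astrocytes are known for Tlr3.

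RNA was sequenced from 4 groups of 3 mice, sham or ICH in Fabp4fl_fl (written here as Fabp4fl/fl) or Fabp4CKO animals. All mice carried floxed Fabp4, the gene of a fatty acid-binding protein, and Fabp4CKO mice also carried Tmem119-CreERT2, a tamoxifen-inducible Cre driven by a microglial promoter, so that deletion was directed to microglia and not to every cell of the tissue. Tamoxifen was injected before surgery in Fabp4CKO mice, and whether the Fabp4fl/fl controls also received it was not stated. ICH was induced with collagenase, which degrades vessel walls, in the right striatum, tissue around the hematoma was collected 48 h after ICH, and ICH mice without neurological deficits had been excluded. The age and sex of these mice were not stated in the labels.

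The libraries held between 15650813 and 22406216 reads assigned to genes. Fabp4, the targeted gene, had 46, 63 and 24 reads in the ICH-Fabp4fl/fl mice, 5, 3 and 10 in the ICH-Fabp4CKO mice, 1 or 2 in each sham-Fabp4fl/fl mouse and 0 in each sham-Fabp4CKO mouse. Among the libraries after ICH, Fabp4fl/fl mouse 1 had 16.3% of its reads on mitochondrial genes, against 7.90% to 11.9% in the other ICH libraries. Fabp4CKO mouse 1 after ICH had 1 read over 4 Y-linked genes, against 1302 to 2251 in the other 11 libraries, and Tlr7, Tlr8 and Tlr13 lie on the X chromosome. Neuron, astrocyte and oligodendrocyte markers were present in every library, as in brain tissue. In such bulk tissue, more cells of a type and more RNA per cell cannot be told apart.

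To set the genes beside the regulatory sequence in front of them, the 250 bases before each start site were searched for 4 motifs of factors known from myeloid and TLR signaling. RefSeq windows on GRCm38.p6 were at hand for 7 of the 10 genes. Those of 5 genes are given. They hold a match and belong to genes with a steep change after ICH (Tlr8, Tlr13) or a steep one with the same motif as Tlr3 (Tlr2). The others had a shallow change, Tlr3 in both genotypes and Tlr9 in Fabp4fl/fl mice only. A window of Tlr1, which also rose steeply, held a match too and is not shown. Matches are in capitals and the last base lies next to the start site.
Tlr2, chr3:83841609-83841858, minus strand: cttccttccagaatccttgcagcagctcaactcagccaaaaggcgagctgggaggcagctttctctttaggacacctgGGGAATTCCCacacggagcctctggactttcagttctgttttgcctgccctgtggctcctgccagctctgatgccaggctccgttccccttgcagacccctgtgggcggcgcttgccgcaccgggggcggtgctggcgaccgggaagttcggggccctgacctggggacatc
Tlr3, chr8:45410381-45410630, minus strand: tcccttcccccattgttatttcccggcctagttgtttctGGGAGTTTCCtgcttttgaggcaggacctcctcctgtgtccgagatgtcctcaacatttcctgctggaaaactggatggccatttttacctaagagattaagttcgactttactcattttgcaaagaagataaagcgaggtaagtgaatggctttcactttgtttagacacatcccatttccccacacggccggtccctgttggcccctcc
Tlr8, chrX:167264330-167264579, minus strand: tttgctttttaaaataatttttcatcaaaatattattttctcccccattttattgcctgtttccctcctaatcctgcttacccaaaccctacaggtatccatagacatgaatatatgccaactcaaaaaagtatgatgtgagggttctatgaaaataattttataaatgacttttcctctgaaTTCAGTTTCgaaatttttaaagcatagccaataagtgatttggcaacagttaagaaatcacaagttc
Tlr9, chr9:106222348-106222597, plus strand: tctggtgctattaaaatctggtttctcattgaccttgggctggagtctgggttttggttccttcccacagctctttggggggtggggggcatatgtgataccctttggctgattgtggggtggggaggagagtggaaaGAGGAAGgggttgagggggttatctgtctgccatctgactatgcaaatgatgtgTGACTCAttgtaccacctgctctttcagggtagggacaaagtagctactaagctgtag
Tlr13, chrX:106143025-106143274, plus strand: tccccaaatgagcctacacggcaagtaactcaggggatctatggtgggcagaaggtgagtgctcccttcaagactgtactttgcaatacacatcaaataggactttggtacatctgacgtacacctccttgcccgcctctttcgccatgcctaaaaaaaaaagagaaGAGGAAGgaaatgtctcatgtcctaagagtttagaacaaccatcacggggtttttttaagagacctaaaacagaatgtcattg

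In the window of Tlr2 the capitals mark an NF-kB consensus site from 172 to 163 bases before the start, a palindrome that was matched on both strands, and in that of Tlr3 they mark one from 211 to 202 bases before it. Of the 32851 mouse promoter windows of this length, 5.0% held the NF-kB consensus. The window of Tlr8 held the interferon regulatory factor motif GAAANNGAA on the opposite strand, from 67 to 59 bases before the start, which 7.13% of all windows held. Windows of Tlr9 and Tlr13 held GAGGAAG, a core bound by the myeloid factor PU.1, and so did a window of Tlr1, whereas 10.6% of all windows held it. The Tlr9 window also held the AP-1 motif TGANTCA from 58 to 52 bases before the start, as 6.75% of all windows did. The searches covered both strands, none of these matches overlapped another motif, the windows of Cd180 held no match, and a match describes letters and not a bound factor.

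Before hemorrhage the receptors were expressed at low levels, and Tlr3, the sensor of double-stranded RNA, stood first. Expressed per kilobase of exon, so that genes can be compared, Tlr3 was at 2.94 ± 0.124 CPM (counts scaled to library size) per kilobase in sham-Fabp4fl/fl mice (SD, n = 3) and at 2.52 ± 0.0323 in sham-Fabp4CKO mice. Cd14, which captures lipopolysaccharide, came next at 2.08 ± 0.925 and 1.93 ± 0.426 CPM per kilobase. Its range overlapped that of Tlr3 in Fabp4fl/fl but not in Fabp4CKO mice. Tlr2, Tlr7, Cd180 and Tlr13 lay between 0.877 and 1.05 CPM per kilobase in sham-Fabp4fl/fl mice, and their neighbors in that order overlapped. Tlr9, Tlr4 and Tlr1 followed at 0.503, 0.252 and 0.247, and Tlr8 had at most 2 reads in any sham library.

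After ICH, 9 of the 10 genes rose in Fabp4fl/fl mice and 10 of 10 rose in Fabp4CKO mice, whereas edgeR called none between genotypes when the ICH and the sham libraries were each fitted alone. After ICH, Tlr9 was called between genotypes by DESeq2 and by the joint fit of all 12 libraries. Tlr9 was also the gene that did not pass for ICH in Fabp4fl/fl mice. Across all genes tested by edgeR at an adjusted p under 0.05, ICH raised 26.2% and lowered 19.3% in Fabp4fl/fl mice and raised 24.5% and lowered 11.1% in Fabp4CKO mice. The median log2 fold change of the 10 genes was 3.72 in Fabp4fl/fl mice, beside 0.02 over all genes tested, and 4.98 in Fabp4CKO mice, beside 0.01. Both medians stayed the same with Tlr8 set to its lower bound, described with that gene. They could not have changed, since that bound still lay above the fold change of every other of the 10 genes. In Fabp4fl/fl mice all 3 ICH values exceeded all 3 sham values for 9 of the 10 genes, beside 33.0% of all genes, and in Fabp4CKO mice they did for 10 of 10, beside 32.1%. Tlr8, with at most 2 reads in any sham library, entered these comparisons only through its reads after ICH. Its place in the counts of genes that rose was therefore largely fixed by the count filter. The comparisons in each genotype use different mice, but each shares its ICH mice with the comparison of genotypes after ICH.

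**Figure D1:**
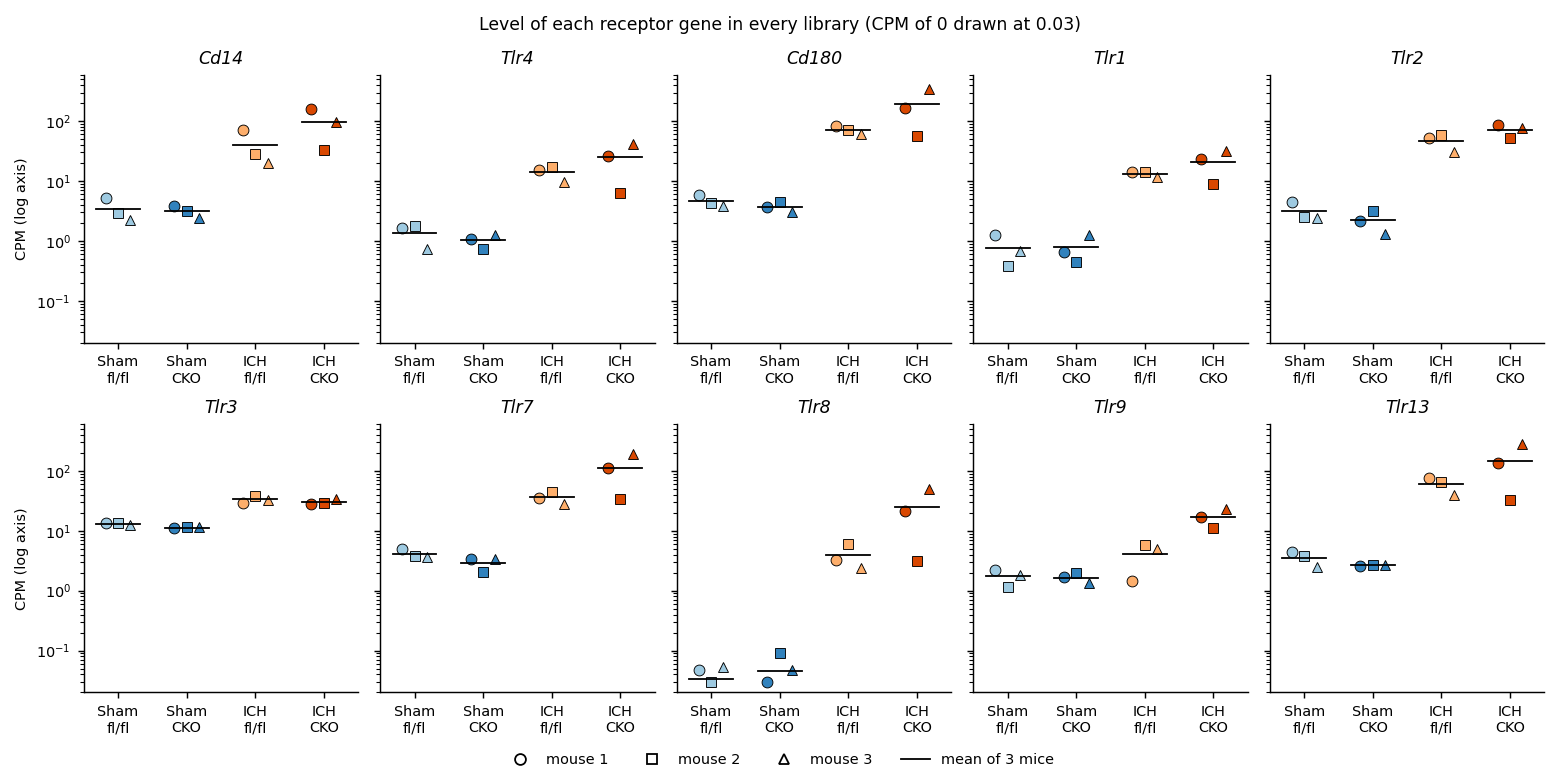
CPM of each gene (log axis) in each mouse of the 4 groups; symbols give the mouse number, horizontal lines the mean of 3 mice, and a CPM of 0 is drawn at 0.03. After ICH mouse 2 of the Fabp4CKO group was the lowest of its group for every gene except Tlr3, whose 12 values stayed between 11.2 and 38.5.

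Cd14 (ENSMUSG00000051439), the co-receptor that passes lipopolysaccharide to Tlr4, was at 5.12, 2.93 and 2.21 CPM in the sham-Fabp4fl/fl mice and at 3.83, 3.22 and 2.44 in the sham-Fabp4CKO mice. After ICH it reached 69.9, 28.3 and 19.8 CPM in Fabp4fl/fl and 160, 32.9 and 95.1 in Fabp4CKO mice. Each ICH value lay above each sham value, while the 2 genotypes overlapped after ICH, with mouse 1 highest in each. Cd14 rose 11.6-fold in Fabp4fl/fl mice (log2 fold change 3.54, SE 0.56, edgeR with Benjamini-Hochberg adjustment over all genes, adjusted p = 0.00279). Without Fabp4fl/fl mouse 1, which had the high mitochondrial share, the rise was 6.98-fold. In Fabp4CKO mice the rise was 30.6-fold (log2 4.94, SE 0.63, edgeR adjusted p = 0.00611), and 20.3-fold without mouse 1.

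Tlr4 (ENSMUSG00000039005), the receptor for lipopolysaccharide, had 1.63, 1.77 and 0.736 CPM in sham-Fabp4fl/fl and 1.09, 0.726 and 1.26 in sham-Fabp4CKO mice. Its levels after ICH were 15.4, 17.0 and 9.83 CPM in Fabp4fl/fl and 26.3, 6.40 and 41.9 in Fabp4CKO mice. All ICH values exceeded all sham values, and the Fabp4CKO values lay on either side of the Fabp4fl/fl range. Tlr4 rose 10.3-fold in Fabp4fl/fl mice (log2 3.36, SE 0.38, edgeR adjusted p = 0.000791) and 24.3-fold in Fabp4CKO mice (log2 4.60, SE 0.74, edgeR adjusted p = 0.0095). The second fold was 15.7 without mouse 3 of the ICH-Fabp4CKO group.

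Cd180 (ENSMUSG00000021624) resembles Tlr4 in its outer domain, pairs with Ly86 and is known from B cells as a modulator of the lipopolysaccharide response. Sham-Fabp4fl/fl mice had 5.79, 4.31 and 3.78 CPM and sham-Fabp4CKO mice 3.69, 4.40 and 3.09. ICH-Fabp4fl/fl mice had 81.5, 71.4 and 61.7 CPM and ICH-Fabp4CKO mice 167, 57.1 and 347. Sham and ICH did not overlap, and mouse 2 of the ICH-Fabp4CKO group lay below all ICH-Fabp4fl/fl mice while the other two lay above them. The gene rose 15.6-fold in Fabp4fl/fl mice (log2 3.96, SE 0.22, edgeR adjusted p = 0.000262) and 51.4-fold in Fabp4CKO mice (log2 5.68, SE 0.72, edgeR adjusted p = 0.00611), the latter 29.9-fold without mouse 3. One exon of Cd180 overlaps Mast4 on the opposite strand by 182 bases in GENCODE vM21, and without strand in the counting their reads there cannot be told apart. Mast4 was lower in every ICH library (42.0 to 59.4 CPM) than in every sham library (71.5 to 99.5 CPM). Among B cell markers Cd79b rose after ICH, by 3.06 on the log2 scale in Fabp4fl/fl (SE 0.72, edgeR adjusted p = 0.0131) and by 3.33 in Fabp4CKO mice (SE 0.54, edgeR adjusted p = 0.00953), whereas Cd79a had at most 16 reads and Fcmr at most 6 in any library. Their part in the level of Cd180 was not tested.

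Among the lipopeptide receptors, Tlr2 (ENSMUSG00000027995), which pairs with Tlr1 or Tlr6, had 4.55, 2.54 and 2.42 CPM in sham-Fabp4fl/fl and 2.18, 3.13 and 1.31 in sham-Fabp4CKO mice. After ICH it was at 52.3, 57.7 and 30.9 CPM in Fabp4fl/fl and at 85.3, 52.3 and 76.6 in Fabp4CKO mice. The sham and ICH ranges were far apart and the genotypes overlapped through Fabp4CKO mouse 2. Tlr2 rose 14.9-fold in Fabp4fl/fl mice (log2 3.90, SE 0.35, edgeR adjusted p = 0.000408) and 32.6-fold in Fabp4CKO mice (log2 5.03, SE 0.38, edgeR adjusted p = 0.00478).

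Tlr1 (ENSMUSG00000044827) had 1.24, 0.387 and 0.683 CPM in sham-Fabp4fl/fl and 0.662, 0.454 and 1.26 in sham-Fabp4CKO mice. Its ICH values were 14.1, 14.2 and 11.5 CPM in Fabp4fl/fl and 23.3, 8.85 and 31.3 in Fabp4CKO mice. Again the ICH values cleared the sham values and the Fabp4CKO values fell on either side of the Fabp4fl/fl range. Tlr1 rose 17.0-fold in Fabp4fl/fl mice (log2 4.09, SE 0.39, edgeR adjusted p = 0.000468) and 26.8-fold in Fabp4CKO mice (log2 4.74, SE 0.62, edgeR adjusted p = 0.00634). Its close relative Tlr6, not one of the 10 genes, also rose after ICH, by 3.08 on the log2 scale in Fabp4fl/fl mice (SE 0.45, edgeR adjusted p = 0.00196) and by 4.23 in Fabp4CKO mice (SE 0.66, edgeR adjusted p = 0.00898). Both are on chromosome 5 and each had estimated counts that were not whole in 5 of 12 libraries, so the split of reads between them is uncertain.

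Of the endosomal sensors, Tlr3 (ENSMUSG00000031639) varied least between the mice of each group. It was at 13.4, 13.6 and 12.6 CPM in sham-Fabp4fl/fl mice and at 11.2, 11.4 and 11.4 in sham-Fabp4CKO mice. ICH-Fabp4fl/fl mice had 29.3, 38.5 and 32.7 CPM and ICH-Fabp4CKO mice 28.3, 29.3 and 34.2. The genotypes overlapped after ICH, and the highest Fabp4CKO mouse exceeded the lowest by 1.21 times. Tlr3 rose 2.57-fold in Fabp4fl/fl mice (log2 1.36, SE 0.15, edgeR adjusted p = 0.000709) and 2.73-fold in Fabp4CKO mice (log2 1.45, SE 0.13, edgeR adjusted p = 0.00478). These were the smallest rises that passed the test among the 10 genes. Exons of Tlr3 overlap Gm45542 on the opposite strand by 258 bases, which was not analysed here.

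Tlr7 (ENSMUSG00000044583), a sensor of single-stranded RNA, had 4.93, 3.76 and 3.68 CPM in sham-Fabp4fl/fl and 3.36, 2.09 and 3.37 in sham-Fabp4CKO mice. It had 35.8, 44.7 and 28.1 CPM in ICH-Fabp4fl/fl and 110, 33.9 and 192 in ICH-Fabp4CKO mice. Fabp4CKO mice 1 and 3 were above every Fabp4fl/fl mouse after ICH and mouse 2 was within their range. Tlr7 rose 8.85-fold in Fabp4fl/fl mice (log2 3.15, SE 0.23, edgeR adjusted p = 0.000341) and 38.4-fold in Fabp4CKO mice (log2 5.26, SE 0.70, edgeR adjusted p = 0.00659), or 24.4-fold without mouse 3.

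Tlr8 (ENSMUSG00000040522), its neighbor on the X chromosome and also a sensor of RNA, was nearly absent from sham brain, with 1, 0 and 1 reads in Fabp4fl/fl and 0, 2 and 1 reads in Fabp4CKO mice. After ICH there were 50, 98 and 45 reads in Fabp4fl/fl mice, or 3.28, 5.93 and 2.39 CPM. The Fabp4CKO mice had 322, 59 and 905 reads, or 21.0, 3.15 and 50.2 CPM. ICH and sham were separate in both genotypes, and mouse 2 of the Fabp4CKO group again fell within the Fabp4fl/fl range. Against a floor of 3 reads in each sham library, Tlr8 was at least 24.8-fold higher after ICH in Fabp4fl/fl mice (edgeR adjusted p = 0.000664) and at least 178-fold higher in Fabp4CKO mice (edgeR adjusted p = 0.00964). Without mouse 3 of the ICH-Fabp4CKO group the latter bound was 86.6-fold. Tlr8 passed the count filter only through its reads after ICH, so these tests could hardly have called it other than higher.

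Tlr13 (ENSMUSG00000033777), a sensor of bacterial ribosomal RNA, was at 4.45, 3.76 and 2.47 CPM in sham-Fabp4fl/fl and at 2.60, 2.72 and 2.67 in sham-Fabp4CKO mice. It reached 76.7, 64.0 and 39.4 CPM in ICH-Fabp4fl/fl and 136, 32.4 and 277 in ICH-Fabp4CKO mice. Mouse 2 of the Fabp4CKO group was below every Fabp4fl/fl mouse and mice 1 and 3 above them. Tlr13 rose 17.0-fold in Fabp4fl/fl mice (log2 4.09, SE 0.34, edgeR adjusted p = 0.000352) and 56.0-fold in Fabp4CKO mice (log2 5.81, SE 0.83, edgeR adjusted p = 0.0076), or 31.3-fold without mouse 3.

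Tlr9 (ENSMUSG00000045322), the sensor of unmethylated CpG DNA, followed another pattern. Sham-Fabp4fl/fl mice had 2.25, 1.16 and 1.84 CPM and sham-Fabp4CKO mice 1.66, 1.95 and 1.36. ICH-Fabp4fl/fl mice had 1.45, 5.87 and 4.89 CPM, so that mouse 1, the library with the high mitochondrial share, stayed within the sham range. ICH-Fabp4CKO mice had 17.2, 11.0 and 23.0 CPM, above every mouse of the other groups. In Fabp4fl/fl mice the log2 fold change was 1.23 (SE 0.53, edgeR adjusted p = 0.0921), and without mouse 1 it was 1.61 with an edgeR adjusted p of 0.0149. With all 12 libraries in one fit it was 1.26 (SE 0.46, edgeR adjusted p = 0.0426), and that fit called 29.0% of all genes higher. Tlr9 rose 10.4-fold in Fabp4CKO mice (log2 3.38, SE 0.33, edgeR adjusted p = 0.00478).

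**Figure D2:**
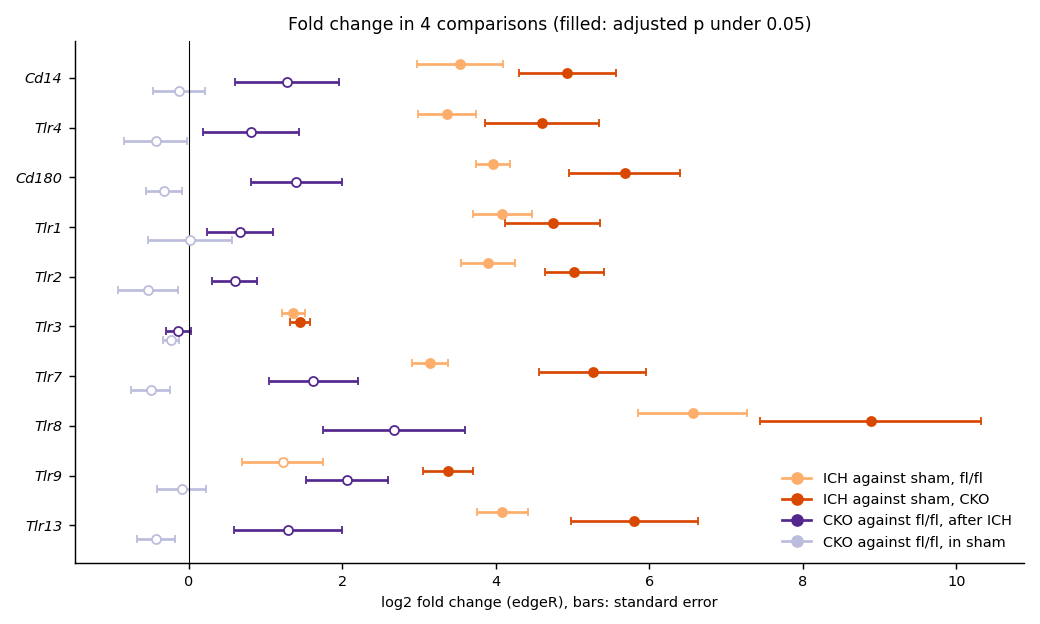
Log2 fold change of each gene in 4 comparisons (dots, with the standard error derived from the edgeR test statistic as bars). Filled dots passed an adjusted p of 0.05 in edgeR. All dots for ICH against sham are filled except Tlr9 in Fabp4fl/fl, whereas those for Fabp4CKO against Fabp4fl/fl are open; Tlr8 was too low to be tested in sham.

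With any 1 of the sham-Fabp4CKO mice left out, the rises of Tlr4 and Tlr8 in Fabp4CKO mice missed the threshold, with edgeR adjusted p up to 0.0558, and so did that of Tlr13 without mouse 2 or 3, with edgeR adjusted p up to 0.0507. The log2 fold changes in these fits were 4.40 to 4.78 for Tlr4, 8.36 to 9.69 for Tlr8 and 5.80 to 5.82 for Tlr13. Over all genes the same fits called 701 to 796 higher, against 3605 with all mice. No call in Fabp4fl/fl mice was lost when 1 library was left out.

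After ICH, 9 of the 10 genes had a higher mean in Fabp4CKO than in Fabp4fl/fl mice, with a median log2 fold change of 1.29 beside 0.06 over all genes, but the spread within the Fabp4CKO group was wide. By edgeR at an adjusted p under 0.05, 0 of the 10 genes were called higher and 0 lower, as were 0.0% and 0.0% of all 14600 genes tested. At an unadjusted p under 0.05, 3 of 10 were higher, Tlr7, Tlr8 and Tlr9, where 6.36% of all genes were higher. One gene of the 10, Tlr9, had no overlap between genotypes, where 10.3% of all genes were higher without overlap. With 3 mice against 3 an exact permutation test cannot give a p below 0.1.

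Tlr9 differed by 2.06 on the log2 scale (SE 0.54), or 4.17-fold, at an unadjusted p of 0.00718 and an adjusted p of 0.313 in edgeR, and its two-sided exact permutation p was 0.1, the smallest possible. It was called higher by DESeq2 (adjusted p = 0.0133), where 1.75% of all genes were, and by edgeR with all 12 libraries in one fit (adjusted p = 0.0463), where 1.02% of all genes were. No other of the 10 genes was called by either. Over the 15 alternative analyses its adjusted p ranged from 0.0133 to 1.0. Tlr8 differed by 2.67 (SE 0.93, edgeR adjusted p = 0.355) and Tlr7 by 1.62 (SE 0.58, edgeR adjusted p = 0.362). Tlr13 was 2.46-fold higher (log2 SE 0.71). The log2 differences of Cd180 and Cd14 were 1.40 (SE 0.59) and 1.28 (SE 0.68), and those of Tlr4, Tlr1 and Tlr2 were 0.81 (SE 0.62), 0.67 (SE 0.44) and 0.60 (SE 0.30). Tlr3 was the exception in sign at -0.14 (SE 0.17). For these 7 genes edgeR gave an adjusted p of 0.414 to 0.772.

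The width of the Fabp4CKO group after ICH had the same order of mice in most genes. Its highest mouse exceeded its lowest by 16.0 times for Tlr8, 8.56 for Tlr13, 6.55 for Tlr4, 6.07 for Cd180, 5.67 for Tlr7, 4.86 for Cd14 and 3.54 for Tlr1. Tlr9, Tlr2 and Tlr3 were tighter, at 2.09, 1.63 and 1.21 times, and the median over all genes was 1.60 times. Mouse 2 was lowest for all but Tlr3, and mouse 3 was highest for all but Tlr2 and Cd14, for which mouse 1 was. Without mouse 2 the median log2 difference between genotypes was 1.73 and 9 of 10 genes were higher at an unadjusted p under 0.05, beside 13.1% of all genes, with 0 called. Without mouse 3 the median was 0.60 and 1 gene was higher at an unadjusted p under 0.05, beside 3.72% of all genes. Without both libraries that stood apart, mouse 1 of each genotype, the median was 1.49 with 1 gene higher at an unadjusted p under 0.05, beside 1.99% of all genes, and 0 called. In the same libraries 10 of 10 genes rose after ICH in each genotype, beside 20.9% of all genes in Fabp4fl/fl and 9.63% in Fabp4CKO mice.

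Myeloid markers moved with these mice. In ICH-Fabp4CKO mice 1, 2 and 3 the 10 receptor genes summed to 774, 267 and 1168 CPM. The 9 microglia markers in the table summed to 3030, 1537 and 4481 CPM, 11 monocyte and macrophage markers to 5210, 1079 and 8941 CPM, and 10 neutrophil markers to 231, 74.3 and 371 CPM. All 4 sums put mouse 3 first and mouse 2 last. In ICH-Fabp4fl/fl mice the receptor genes summed to 380, 347 and 241 CPM, the microglia markers to 1625, 1451 and 1556 CPM, the monocyte and macrophage markers to 2012, 1673 and 835 CPM, and the neutrophil markers to 90.5, 59.6 and 53.6 CPM. In sham mice the receptor genes summed to 28.2 to 43.5 CPM, microglia markers to 373 to 438 CPM and monocyte and macrophage markers to 35.7 to 78.1 CPM. In sham libraries Ccr2 and Ly6c2, which define inflammatory monocytes, had up to 14 and 9 reads in Fabp4fl/fl and up to 3 and 2 in Fabp4CKO mice, and Lyz2 had up to 972 and 245. ICH raised 8 of 9 microglia markers and 10 of 11 monocyte and macrophage markers in each genotype, beside 26.2% of all genes in Fabp4fl/fl and 24.5% in Fabp4CKO mice. Only 5 of the 11 monocyte and macrophage markers passed the count filter in the sham libraries alone, so the others were tested only through their reads after ICH. Summed neuron markers of the same mice moved the other way, being lowest at 1699 CPM in ICH-Fabp4CKO mouse 3 and highest at 4755 CPM in mouse 2. Between genotypes after ICH, 6 of 8 neutrophil markers tested, 3 of 9 microglia markers and 2 of 11 monocyte and macrophage markers were higher at an unadjusted p under 0.05 in edgeR. Over all genes 6.36% were, 0 of these markers were lower at that p, and 0 were called. Ltf, a neutrophil marker, had at most 9 reads in any ICH-Fabp4fl/fl mouse, so part of that list was near the floor there. Of 9 neuron markers, 1 was higher at an unadjusted p under 0.05, beside 6.36% of all genes, and 0 were lower. It was Slc17a7 (log2 3.41, SE 0.97, edgeR adjusted p = 0.328), at 68.7 to 387 CPM in Fabp4CKO and 7.32 to 35.0 CPM in Fabp4fl/fl mice. Between genotypes after ICH the 6 oligodendrocyte markers summed to 26562, 23481 and 18434 CPM in Fabp4fl/fl and 11051, 11466 and 7244 in Fabp4CKO mice, and the 6 endothelial markers to 946, 662 and 460 and to 357, 244 and 302 CPM. Each of these 12 genes was lower in Fabp4CKO mice at an unadjusted p under 0.05, as 5.82% of all genes were, and edgeR called 0 of them. The part of these cells in the levels of the receptor genes was not tested.

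**Figure D3:**
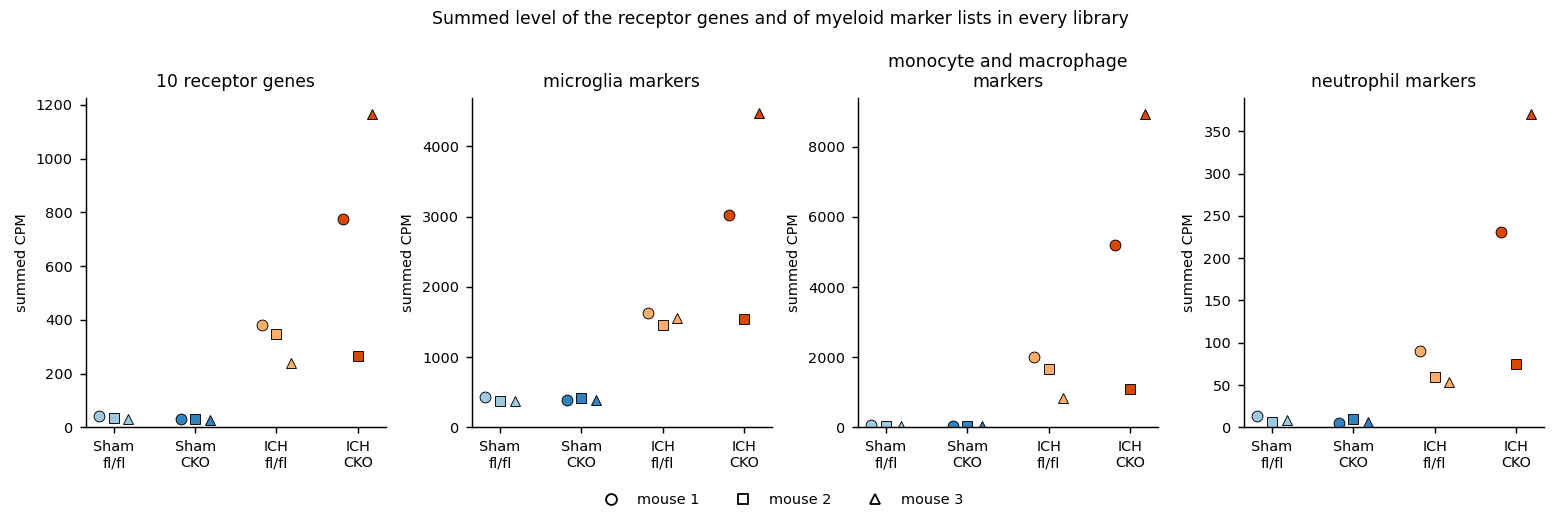
Summed CPM of the 10 receptor genes and of the microglia, monocyte and macrophage, and neutrophil marker lists in each mouse (symbols give the mouse number). In the ICH-Fabp4CKO group each panel puts mouse 3 highest and mouse 2 lowest, as in the 1168 and 267 CPM of the receptor genes.

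In sham mice the genotypes were close. Tlr8 was too low to be tested, and of the other 9 genes 0 were called higher and 0 lower by edgeR, beside 0.0% and 0.111% of all genes. None of the 9 had an unadjusted p under 0.05, and DESeq2 called 0. Log2 differences, Fabp4CKO against Fabp4fl/fl, ran from -0.53 for Tlr2 (SE 0.39) to 0.02 for Tlr1 (SE 0.55), and 8 of 9 were below 0. Tlr3 at -0.23 (SE 0.10) and Tlr7 at -0.50 (SE 0.25) were lower without overlap, as 8.07% of all genes were, with edgeR adjusted p of 0.488 and 0.514. Without sham-Fabp4fl/fl mouse 1 the difference of Cd14 was 0.29 and that of Tlr9 0.13, so the sign of both depended on single mice.

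Whether the rise after ICH differed by genotype was tested as an interaction over all 12 libraries. All 10 estimates were above 0, with a median of 1.51 on the log2 scale beside 0.03 over all genes. By edgeR 0 of 10 were called higher and 0 lower, beside 0.0133% and 0.00663% of all 15089 genes, and DESeq2 also called 0. At an unadjusted p under 0.05, 3 of 10 were higher, Tlr9, Tlr7 and Cd180, beside 5.57% of all genes. The estimate of Tlr8 was 2.26, with a standard error of 2.97, for a gene with at most 2 reads in any sham library. Next came 2.12 for Tlr9 (SE 0.64, edgeR adjusted p = 0.33) and 2.07 for Tlr7 (SE 0.70, edgeR adjusted p = 0.367). That of Tlr3 was 0.05 (SE 0.18). Without ICH-Fabp4CKO mouse 2, Tlr7 (2.51, edgeR adjusted p = 0.0242) and Cd180 (2.11, edgeR adjusted p = 0.0341) were called, where 1.7% of all genes were, and with any other mouse left out 0 were. Without mouse 3 of that group the estimates were 1.44 for Tlr7 and 0.92 for Cd180, and the median of the 10 genes was 0.98, against 1.93 without mouse 2.

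The make-up of the receptor reads changed with ICH. Tlr3 made up 30.9% to 41.3% of the summed CPM of the 10 genes in the 6 sham libraries and 2.93% to 13.6% in the 6 ICH libraries. The share of Cd180 was 11.0% to 14.6% in sham and 20.5% to 29.7% in ICH libraries, and that of Tlr13 was 8.12% to 11.0% and 12.1% to 23.7%. Sham and ICH did not overlap in these 3 shares, whereas they did in the share of Tlr7, at 6.91% to 12.1% and 9.43% to 16.4%. Per kilobase of exon, Cd14 came first after ICH, at 24.0 ± 16.3 CPM in Fabp4fl/fl and 58.4 ± 38.6 in Fabp4CKO mice (SD, n = 3), and its range overlapped that of Cd180, the next, at 15.9 ± 2.2 and 42.2 ± 32.4. Tlr3 took place 6 in Fabp4fl/fl and place 7 in Fabp4CKO mice. Tlr8 moved from place 10 in Fabp4fl/fl mice, at 1.13 ± 0.536 CPM per kilobase, to place 6 in Fabp4CKO mice at 7.22 ± 6.93, where its range overlapped those of Tlr3 and Tlr1 below it.

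**Figure D4:**
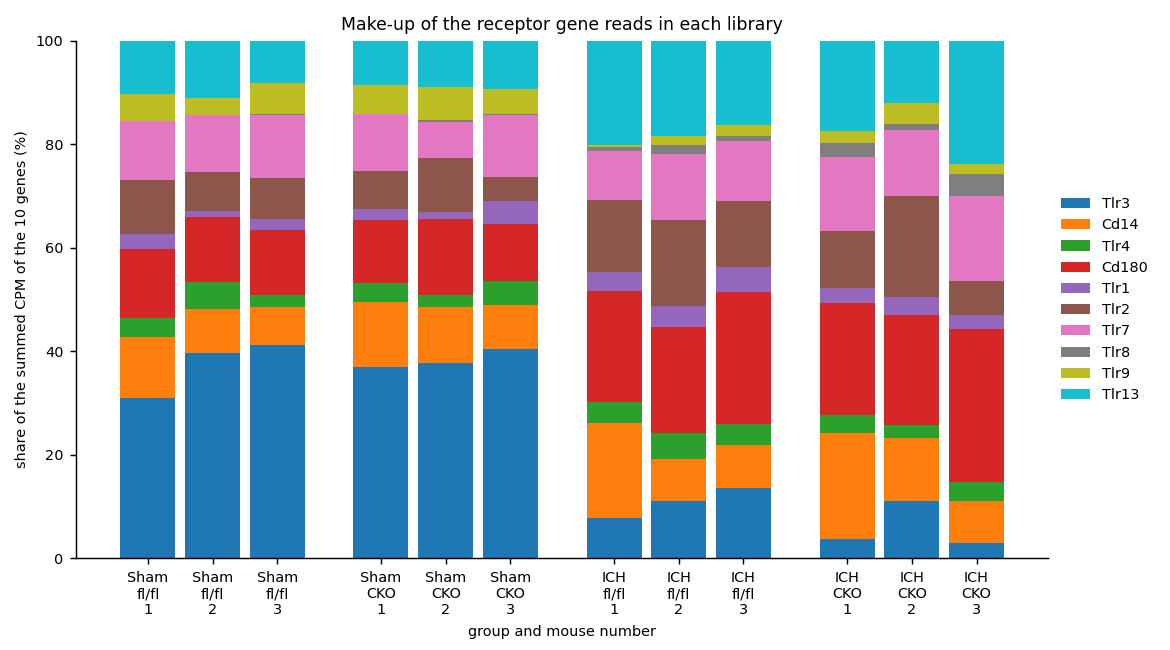
Share of each gene in the summed CPM of the 10 genes (%), one bar for each mouse. The Tlr3 segment at the bottom covers 30.9% to 41.3% of the sham bars and 2.93% to 13.6% of the ICH bars; the shares are of reads and not corrected for gene length.

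The likeness of profiles was measured as the root mean square distance between mean-centered log2 CPM over the 12 libraries, among 15089 genes. Tlr13 and Cd180 were 0.225 apart and were each other's nearest among the 10 genes. The genes nearest to Tlr13 were Lcp1, Ptprc and Itgb2, at 0.166 to 0.205, and those nearest to Cd180 were Myo1f, Itgb2 and Apobec1, at 0.190 to 0.239. Ptprc encodes the leukocyte antigen CD45 and Itgb2 a chain of the leukocyte integrins. Tlr4 lay nearest to Lsp1, Casp1 and Hacd4, at 0.233 to 0.270. Tlr1 had A630001G21Rik, Tnfrsf1b and Cd53 as neighbors, Tlr2 had Neurl3, Fcgr1 and Itgal, and Cd14 had Ccl9, Il3ra and Fosl1, at 0.348 to 0.413. Tlr8, at few reads, lay 0.468 to 0.538 from Cd200r4, Stra6l and Cd68, and Tlr9 lay 0.542 to 0.560 from Man2b2, Calhm6 and 9930111J21Rik1. Tlr3 was close to Pbxip1, Icosl and Pgghg, at 0.081 to 0.162, but 1.02 from Tlr9, its nearest receptor gene, and 2.45 from Tlr8. These distances describe 12 libraries that share the ICH effect.

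Other TLRs and partners were read from lists. Beside the counts of all these lists, ICH raised 26.2% and lowered 19.3% of all genes tested in Fabp4fl/fl mice. In Fabp4CKO mice it raised 24.5% and lowered 11.1% of them. Of the remaining mouse TLRs, Tlr11 had too few reads to be tested in any comparison, 1 of 3 tested (Tlr6) rose in Fabp4fl/fl mice, and Tlr6 and Tlr12 rose in Fabp4CKO mice. Of 9 co-receptors, carriers and trafficking partners, 5 rose and 0 fell in Fabp4fl/fl mice and 6 rose in Fabp4CKO mice. Ly86, the partner of Cd180, rose by 3.31 on the log2 scale in Fabp4fl/fl (SE 0.21, edgeR adjusted p = 0.000283) and by 3.91 in Fabp4CKO mice (SE 0.37, edgeR adjusted p = 0.00478). Unc93b1, which escorts the nucleic acid sensors to endosomes, rose by 2.43 in Fabp4fl/fl (SE 0.21, edgeR adjusted p = 0.000379) and by 3.95 in Fabp4CKO mice (SE 0.45, edgeR adjusted p = 0.00549). Lbp, a carrier of lipopolysaccharide, had a log2 fold change of -1.14 in Fabp4fl/fl mice (SE 0.44, edgeR adjusted p = 0.0668).

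Of 18 adaptors and kinases, 12 rose and 0 fell in Fabp4fl/fl mice, and 13 rose and 1 fell in Fabp4CKO mice. Over all genes 26.2% rose and 19.3% fell in the first, and 24.5% rose and 11.1% fell in the second. Pik3ap1, an adaptor to PI3-kinase, rose by 3.63 in Fabp4fl/fl mice (SE 0.22, edgeR adjusted p = 0.000279) and Myd88, the shared adaptor, by 2.75 (SE 0.21, edgeR adjusted p = 0.00035). In Fabp4CKO mice the smallest p were those of Ticam2, which couples Tlr4 to Ticam1, at 5.35 (SE 0.66, edgeR adjusted p = 0.00599) and Pik3ap1 at 5.08, whereas Traf3, a ubiquitin ligase, fell by 0.42 (SE 0.13, edgeR adjusted p = 0.0461). Of the inhibitors of TLR signaling, 7 of 12 tested rose and 2 fell in Fabp4fl/fl mice, and 8 of 13 rose and 1 fell in Fabp4CKO mice. Atf3, a repressor of cytokine genes, rose by 4.89 in Fabp4fl/fl (SE 0.45, edgeR adjusted p = 0.000425) and by 6.46 in Fabp4CKO mice (SE 0.70, edgeR adjusted p = 0.00549). Tollip and Sarm1, which restrain receptor signaling, fell by 0.58 and 1.09 in Fabp4fl/fl mice (edgeR adjusted p = 0.02 and 0.0304). These 2 falls among 12 inhibitors were near the share of all genes that fell, 19.3%.

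Downstream, 9 of 10 transcription factors rose in Fabp4fl/fl and 8 of 10 in Fabp4CKO mice, beside 26.2% and 24.5% of all genes. The smallest p were those of Irf8 and Nfkb2 (log2 3.33 and 2.47) in the first and of Irf7 and Irf8 (3.99 and 4.12) in the second. In Fabp4fl/fl mice Irf7 had a log2 fold change of 3.41 and Irf5 one of 3.04. Among 18 listed cytokines, chemokines and enzymes that TLRs induce, 12 of 13 tested rose in Fabp4fl/fl and 15 of 15 in Fabp4CKO mice. Only 6 of the 18 passed the count filter when the sham libraries were tested alone. Many thus entered the test only through their reads after ICH, so these 2 counts were largely fixed by the filter. Ccl2, which attracts monocytes, rose by 7.20 (SE 0.48, edgeR adjusted p = 0.000287) and 7.85 (SE 0.83, edgeR adjusted p = 0.0054). Of the endogenous ligands 8 of 9 tested rose in Fabp4fl/fl mice, with the smallest p for Fn1 and Bgn (3.90 and 2.49), and 6 of 9 rose in Fabp4CKO mice, with the smallest p for Tnc and S100a8 (4.42 and 7.22). In Fabp4fl/fl mice S100a8, Tnc and S100a9 had log2 fold changes of 4.46, 3.28 and 2.73. S100a8 had at most 3 reads in any sham-Fabp4fl/fl mouse and at most 4 in any sham-Fabp4CKO mouse, so the size of its fold changes is uncertain. S100a8, S100a9 and Camp of this list are also in the neutrophil list, and Vcan is in the monocyte and macrophage list. Between genotypes after ICH, edgeR called 0 of the 77 genes tested from these 7 lists. At an unadjusted p under 0.05 in edgeR, 8 were higher and 1 lower, beside 6.36% and 5.82% of all genes. DESeq2 called 2 higher, S100a8 and S100a9, and 0 lower, where it called 1.75% of all genes higher. The log2 difference was 1.20 for Unc93b1 (SE 0.41), 1.99 for Lbp (SE 0.66), 2.98 for S100a9, an endogenous ligand of Tlr4 that neutrophils carry (SE 0.95), and -1.19 for Cxcl10, an interferon-induced chemokine (SE 0.44), each with an edgeR adjusted p between 0.347 and 0.365.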

How the data were processed

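Poly(A) RNA libraries from 12 mice, 3 in each of 4 groups, had been sequenced. The deposited table holds estimated counts per gene, which the authors made from aligned reads; the submitters' processing notes name Bowtie2 2.2.8, HISAT2, StringTie 1.3.1 and DESeq2, and the counter, genome build, annotation and strand setting are not given in the sources used here. Estimated counts were rounded before testing. Groups came from the sample labels. Genes were kept with edgeR's filter (minimum count 10, minimum total 15), scaled by TMM, and tested with the edgeR 4.0.16 quasi-likelihood test in R 4.3.3 on the groups compared, with Benjamini-Hochberg adjustment over all genes tested and a threshold of 0.05. The SE given with edgeR values was derived from the test, as the absolute log2 fold change divided by the square root of its F statistic. CPM use TMM library sizes. Exon lengths are those of GENCODE vM21. Depth was 15650813 to 22406216 counts; 3 counts equal 0.136 to 0.197 CPM, which limits Tlr8 and Tlr11, and such floors cover counting error only. Alternatives were DESeq2 1.42.0, other scalings and filters, all 12 libraries in one fit, a replicate block and leaving out each library; the exclusion of libraries that stood apart and a bias-adjusted quasi-likelihood fit were added after seeing the data. On counts simulated for ICH against sham in Fabp4fl/fl, 88 of 100 genes with 4-fold and 24 of 100 with 2-fold changes were recovered. For the genotypes after ICH, 62 and 0 of 100 were. The simulation drew each gene independently and changed few genes, whereas receptor and marker genes moved together across the ICH-Fabp4CKO mice. Recovery in the real data may therefore differ. No libraries were copies of each other. The 10 genes and all lists were chosen with earlier results of these data known. Named genes were the 10 members, up to 2 genes with the smallest p in each direction of each list, genes at or near 0, and the 3 nearest profiles of each member, except that those of Tlr7 and part of the B cell markers are not reported here; Mast4 and Gm45542 were named for their overlap. Protein sequences were not analysed here.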

Additional observations from a re-analysis of the deposited data

How the results depend on the processing

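The rise after ICH held for 9 genes in Fabp4fl/fl mice under every alternative that tested them, and 7 to 10 of the 10 genes were called in Fabp4CKO mice when 1 library was left out. Between genotypes after ICH, 0 genes were called except 1 (Tlr9) by DESeq2 and 1 (Tlr9) with all 12 libraries in one fit. For the genotype difference in the response, leaving out 1 library gave 0 to 2 genes. In sham mice, the log2 difference of Tlr1 turned to -0.013 with total counts without TMM and to -0.002 with the bias-adjusted fit. Leaving out 1 sham library gave -0.497 to 0.549 for it, -0.309 to 0.132 for Tlr9 and -0.365 to 0.291 for Cd14, and the Tlr3 interaction ranged from -0.032 to 0.160; the cause was not tested. Whether replicate numbers pair the mice cannot be settled with 3 mice in each group. Correlations of same-numbered deviations ran from -0.575 to 0.311. Their mean was above that of other pairs for ICH in Fabp4fl/fl mice (0.115 against -0.057) and below it in the other comparisons of 2 groups. With the replicate block 9, 0, 0, 10 and 0 of the 10 genes were called higher (ICH in Fabp4fl/fl, genotype after ICH, genotype in sham, ICH in Fabp4CKO, interaction). Counts over all genes moved more. After ICH, DESeq2 called 255 genes higher and 323 lower in Fabp4CKO, and the fit of all libraries 154 and 208, against 0 and 0; leaving out Fabp4CKO mouse 2 gave 2 higher and the bias-adjusted fit 1. In sham mice DESeq2 called 11 higher and 139 lower, against 0 and 16, and edgeR without sham-Fabp4fl/fl mouse 3 called 1531 and 1331, while other left-out mice gave 0 to 19 lower and the stricter filter 2. ICH in Fabp4CKO mice lowered 3541 genes by DESeq2 and 2558 in the joint fit, against 1642, and leaving out 1 library gave 701 to 5203 higher and 50 to 4896 lower. ICH in Fabp4fl/fl mice lowered 1465 to 3856 genes when 1 library was left out, against 2845. The interaction called 183 higher and 83 lower by DESeq2, and 260 and 111 without ICH-Fabp4CKO mouse 2, against 2 and 1; other left-out mice gave 0 to 19 higher and 0 to 7 lower. Depth limited Tlr8 in sham, where a difference between genotypes was not detectable. With the count filter, the rise of Tlr8 was tested only through its ICH reads.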
